A study of Mus musculus with 4 samples.

Results

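Ribosomal protein pseudogenes were followed on 4 arrays of mouse bone marrow RNA. A gene was a member when its symbol in the array's gene table began with Rpl or Rps and held the suffix -ps. Members needed a transcript cluster (the array's unit for 1 gene or transcript) that carried no other gene, and 202 of the 30702 genes named on the array met the rule. Of these, 132 are copies of large-subunit genes (Rpl) and 70 of small-subunit genes (Rps), named after 51 parent genes. A further 11 member symbols had no cluster of their own and have no value here. RefSeq lists 195 of the members as pseudogenes, 5 as transcribed pseudogenes (Rpl14-ps1, Rps15a-ps4, Rps15a-ps6, Rps19-ps3 and Rps6-ps4) and 2 as protein-coding (Rpl31-ps12 and Rpl34-ps1).

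The arrays hold 1 sample each of 4 groups: control, cisplatin (a chemotherapy drug that binds DNA and harms dividing blood-forming cells), treatment with Astragalus membranaceus (a root of Chinese medicine, called astragalus here) and treatment with electro-acupuncture (needling with an electric current). Tibial marrow was taken after 2 weeks, and 6 marrow samples were mixed before extraction. That this means 6 mice in each group is a reading of the design text, not its wording. The sources used here give no strain, age or dose, and leave it unsaid if the astragalus and electro-acupuncture mice were given cisplatin too. With 1 array a group there is no replicate error and no test, so every value below describes single arrays, and "higher" and "lower" refer to those arrays.

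Ribosomal proteins are the structural proteins of the cytosolic ribosome. Their messenger RNAs are among the most abundant of a cell, are short, and carry a 5′ terminal oligopyrimidine tract (TOP) through which their translation follows growth signals. In mammals such messages were often copied back into DNA and inserted elsewhere in the genome, which left many processed pseudogenes for each working gene. These copies usually lack introns and resemble the spliced message of the parent, so a probe placed on a copy can also bind the parent's message. The signal of a member can therefore not be assigned to the copy alone, and the share that comes from the parent was not tested.

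The members had short spans, with a median of 514.5 bases, and 194 of 202 spanned under 1100 bases. Levels are log2 values, on which a difference of 1 is 2-fold. Genes were compared if their 4-array mean reached 5.235, which is the median of all clusters, and 194 members did so. Rpl31-ps25, with a mean of 5.27, lay just inside and Rpl7a-ps9, at 4.965, just outside. The 8 members below were Rpl35-ps1, Rpl36-ps1, Rpl48-ps1, Rpl7a-ps9, Rpl7l1-ps1, Rpl9-ps2, Rpl9-ps5 and Rpsa-ps3, and the lowest mean was 4.41. Of the 194 members, 4 were under the filter value on the control array and reached it only through their mean.

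Blood-forming markers were well measured: all 22 with a cluster passed the filter, with median levels of 10.47 (control), 10.61 (cisplatin), 11.065 (astragalus) and 10.85 (electro-acupuncture). The summed log2 level of the 7 bone and stroma markers was 54.79, 69.79, 64.50 and 62.50 on the same arrays, and that of the 4 fat markers 25.68, 30.85, 29.77 and 30.37. Among the 8 skeletal muscle markers, 5 passed the filter and the median level was 5.19 to 5.39, near the filter value. Both sums were lowest on the control array, as were most members, although single markers (Ibsp and Plin1) were not. Within the blood-forming list, the granule genes Mpo, Elane, Prtn3 and Ctsg were also lowest in control and highest in astragalus. Mpo (myeloperoxidase) read 11.70, 12.80, 13.75 and 13.25 on the control, cisplatin, astragalus and electro-acupuncture arrays. The platelet genes Pf4, Itga2b and Gp9 were also lowest in control, with Pf4 at 15.24 there and 17.20 on each other array. The other neutrophil granule genes of the list, Ltf, Camp and Ngp, were not lowest in control alone. Ltf and Camp were lowest in cisplatin, at 16.11 and 17.92, beside 16.39 and 18.29 in control. Ngp read 18.77 or 18.78 on every array. The 5 B cell genes Cd79a, Cd79b, Vpreb1, Vpreb3 and Ebf1 were highest in control, with Ebf1 at 10.40, 8.99, 9.39 and 9.19. The part of any of these markers in the members' differences was not tested. In RNA of whole marrow, a different number of cells of a type and a different amount of RNA per cell cannot be told apart. The median over all clusters was 5.27, 5.26, 5.15 and 5.31 on the 4 arrays.

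On the control array, the median level of the 194 members was 13.59. It was 14.24 on the cisplatin, 14.88 on the astragalus and 14.54 on the electro-acupuncture array. Most single members kept the same ends of this order: the control array was the lowest alone for 156 members (80.4%, against 31.9% of the other genes compared), and the astragalus array the highest alone for 138 (71.1%, against 34.1%). In the other direction, control was the highest array for 3 members and astragalus the lowest for 4. Levels at or above control on all 3 other arrays were found for 163 members, and the matching share of other genes is not given here.

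**Figure D1:**
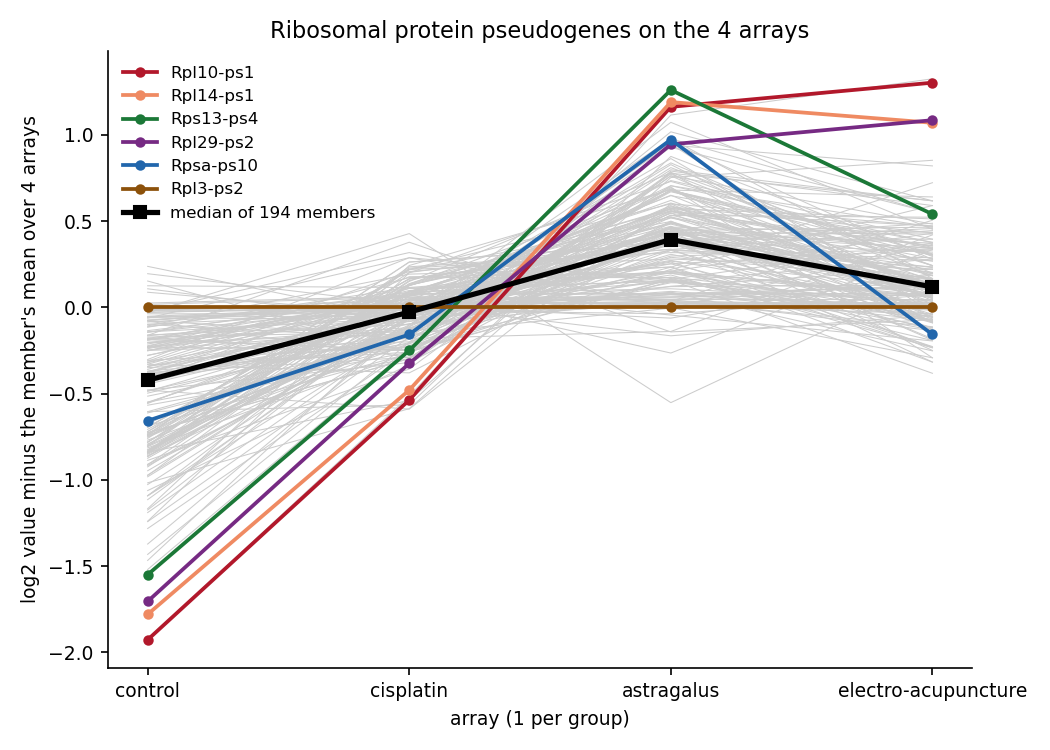
Each grey line is 1 of 194 ribosomal protein pseudogenes, drawn as its log2 value on each array (x axis) minus its own mean over the 4 arrays (y axis), with 6 members in colour and the median in black. The median runs from -0.42 on the control array through -0.03 (cisplatin) to 0.39 (astragalus) and 0.12 (electro-acupuncture), while Rpl3-ps2 is flat.

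In the cisplatin array against control, the members were higher by a median of 0.385 (interquartile range 0.10 to 0.83), against 0.01 over all 17196 genes compared. Of the 194 members, 168 were higher, 10 equal and 16 lower. At least 2-fold higher were 26 members (13.4%), whereas 2.97% of all genes differed 2-fold in either direction and 2.01% were 2-fold higher. After quantile normalization 12 members (6.19%) were past 2-fold, against 2.76% of all genes. None of the members was 2-fold lower, against 0.965% of all genes. The count of 2-fold members was the smallest of the 3 comparisons with control.

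In the astragalus array against control, the median was 0.84 (interquartile range 0.33 to 1.38), against 0.05 over all genes. Higher were 181 members and lower 7, and 87 (44.8%) were at least 2-fold higher against a background of 8.81% in either direction and 6.13% higher. The count was 58 (29.9%, against 7.12% of all genes) after quantile normalization and 70 (36.1%, against 7.43%) with the loess trend removed. The 7 lower members were Rpl23a-ps6, Rpl23a-ps13, Rpl26-ps5, Rpl36-ps7, Rplp1-ps1, Rps15a-ps6 and Rps18-ps2, and none was 2-fold lower, against 2.68% of all genes. With other scalings the sign of this difference changed for 14 members. Electro-acupuncture against control gave a median of 0.58 (interquartile range 0.17 to 1.07), with 166 members higher and 20 lower and an all-gene median of 0.04. Here 57 members (29.4%) were 2-fold higher, against 7.26% of all genes in either direction, 4.15% higher and 3.11% lower. After quantile normalization the count was 37 (19.1%, against 7.27%). The 3 comparisons share the control array, so a low value there enters all of them: 23 members (11.9%, against 1.29% of other genes) were 2-fold above control on all 3 other arrays, and 102 (52.6%, against 93.2%) on none.

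The treated arrays were also set against each other. Astragalus exceeded cisplatin by a median of 0.425, against 0.06 over all genes. At least 2-fold higher were 23 members (11.9%), against 3.92% of all genes in either direction, 2.00% higher and 1.92% lower. That count depended on scaling: it was 12 (6.19%, against 3.34% of all genes) after quantile normalization and 9 (4.64%, against 3.41%) with the loess trend removed. The gap to other genes varied with level. At mean levels of 10.86 to 15.94 the medians were 0.60 (members), 0.54 (other pseudogenes) and 0.41 (all other genes), with 17.2%, 15.5% and 10.5% 2-fold higher. At 15.94 to 19.93 the medians were 0.35, 0.31 and 0.14, and at 5.24 to 10.86 they were 0.25, 0.09 and 0.04. Electro-acupuncture and cisplatin differed by a median of 0.08, against 0.02 over all genes. Higher were 113 members (58.2%, against 52.5% of all genes), with 38 equal and 43 lower. At least 2-fold higher were 8 members (4.12%), against 3.91% of all genes in either direction, 1.33% higher and 2.59% lower. Astragalus exceeded electro-acupuncture by a median of 0.21, and Rpsa-ps10 was the single member past 2-fold (0.515% of members, against 1.52% of all genes in either direction, 0.651% higher and 0.872% lower). This last median was 0.12 after quantile normalization and 0.37 after centring, beside all-gene medians of 0.06 as deposited, 0.03 and 0.22. At mean levels of 10.86 to 15.94 the members' median of 0.335 was close to 0.30 in other pseudogenes and 0.33 in all other genes. At 15.94 to 19.93 the 3 medians were 0.12, 0.13 and 0.05, and at 5.24 to 10.86 they were 0.22, 0.07 and 0.04.

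Among the largest differences from control in all 3 comparisons were those of Rpl10-ps1 and Rpl10-ps6. The Rpl10 protein of the large subunit joins late in assembly and sits close to the peptidyl transferase centre. Rpl10-ps1 read 15.11 on the control, 16.50 on the cisplatin, 18.20 on the astragalus and 18.34 on the electro-acupuncture array, which is 2.62-fold, 8.51-fold and 9.38-fold above control. Rpl10-ps6 read 14.97, 16.38, 18.01 and 18.22 on the arrays in the same order, or 2.66-fold, 8.22-fold and 9.51-fold. Both copies were lowest in control and close together in astragalus and electro-acupuncture, with cisplatin between. The 2 remaining copies, named after their values were seen, had smaller differences and the same lowest array: Rpl10-ps2 at 7.36, 8.18, 8.67 and 8.69, and Rpl10-ps4 at 5.48, 5.83, 5.96 and 6.43. The Rpl10 gene itself has no cluster of its own on this array.

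Rpl14-ps1, a transcribed pseudogene inside the span of the cation channel gene Trpm4, read 14.89, 16.19, 17.86 and 17.74 on the control, cisplatin, astragalus and electro-acupuncture arrays. It was 2.46-fold, 7.84-fold and 7.21-fold above control. Rpl29-ps2, a copy of another large-subunit gene, read 10.11, 11.49, 12.76 and 12.90 (2.60-fold, 6.28-fold and 6.92-fold). These members, like the Rpl10 pair, had nearly the same value in astragalus and electro-acupuncture. Rpl29-ps5 read 9.34, 10.61, 11.64 and 11.26, and Rpl15-ps2 read 14.74, 16.02, 17.20 and 17.08. The remaining copy, Rpl29-ps1 (named after its values were seen), read 8.03, 8.05, 8.32 and 7.83 and did not share the pattern.

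The 4 Rps13 copies, of a small-subunit gene, differed from control by 0.39 to 2.81 in astragalus. In cisplatin the range was 0.09 to 1.30, and in electro-acupuncture 0.27 to 2.09. Those with the largest astragalus differences are given here. Rps13-ps4 read 10, 11.30, 12.81 and 12.09 on the control, cisplatin, astragalus and electro-acupuncture arrays (2.46-fold, 7.01-fold and 4.26-fold above control). Rps13-ps1 read 13.42, 14.65, 15.87 and 15.47 (2.35-fold, 5.46-fold and 4.14-fold). In both, astragalus was the highest array and control the lowest. Rpl36-ps2 had the same order at 15.05, 16.46, 17.59 and 16.97, and so had Rpl36-ps10 at 12.08, 13.52, 14.05 and 13.63, the member with the largest difference between cisplatin and control (2.71-fold). Rpl27-ps1 read 15.55, 16.96, 17.40 and 16.96, with equal values in cisplatin and electro-acupuncture.

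As in Rpl10-ps1, Rps13-ps1 and Rps13-ps4, astragalus and electro-acupuncture also lay above cisplatin and control in 4 members with smaller cisplatin differences. Rpl34-ps1, listed as protein-coding by RefSeq, read 12.45, 12.88, 14.22 and 14.32 on the 4 arrays in the order above. Its difference between cisplatin and control, 0.43, was close to the members' median of 0.385. Rpl17-ps5 read 13.67, 13.97, 15.30 and 15.10. Rpl19-ps4 read 10.14, 10.18, 11.62 and 11.04, and Rps2-ps9 7.75, 7.64, 8.83 and 8.70. In these 4 members the cisplatin value lay within 0.43 of control, and both other arrays were above it. Rpsa-ps10, a copy of the gene of a small-subunit protein also known as a laminin receptor, was high in astragalus alone: it read 13.39, 13.89, 15.02 and 13.89, with the same value in cisplatin and electro-acupuncture.

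By subunit, the 125 large-subunit members compared had median differences from control of 0.49 (cisplatin), 1.06 (astragalus) and 0.83 (electro-acupuncture). The 69 small-subunit members had medians of 0.30, 0.40 and 0.29. At least 2-fold above control in astragalus were 67 large-subunit members (53.6%) and 20 small-subunit members (29.0%). Part of that gap is 1 family: without the 15 copies of Rps12, the remaining 54 small-subunit members had medians of 0.36, 0.705 and 0.36, and the 20 members made up 37.0%. Levels were not alike: the median of mean levels was 14.47 for large-subunit members, 14.05 for small-subunit members and 12.62 without Rps12. The share of the gap that goes with level was not tested. Members of 1 family share a parent sequence and are not independent, so no test was made.

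Families with at least 5 members above the filter numbered 12 and held 116 members. Their median differences between astragalus and control ran from 0.10 for Rps12 to 1.795 for Rpl36. Above 1 were also Rpl9 (1.65, 4 of 5 members 2-fold higher), Rpl21 (1.33, 8 of 13), Rpl31 (1.17, 12 of 22), Rpl30 (1.165, 7 of 8) and Rpl35a (1.06, 4 of 6). Rps19, whose human counterpart is mutated in Diamond-Blackfan anaemia, a failure of red cell production, had a median of 0.95 over 13 copies, 6 of them 2-fold higher. Lower medians were found for Rpsa (0.84 over 7 copies), Rpl7a (0.71 over 7), Rps15a (0.685 over 8) and Rpl23a (0.485 over 6, none 2-fold higher). Each of these medians except that of Rps12 stayed above 0 under quantile normalization, centring and removal of a loess trend.

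**Figure D2:**
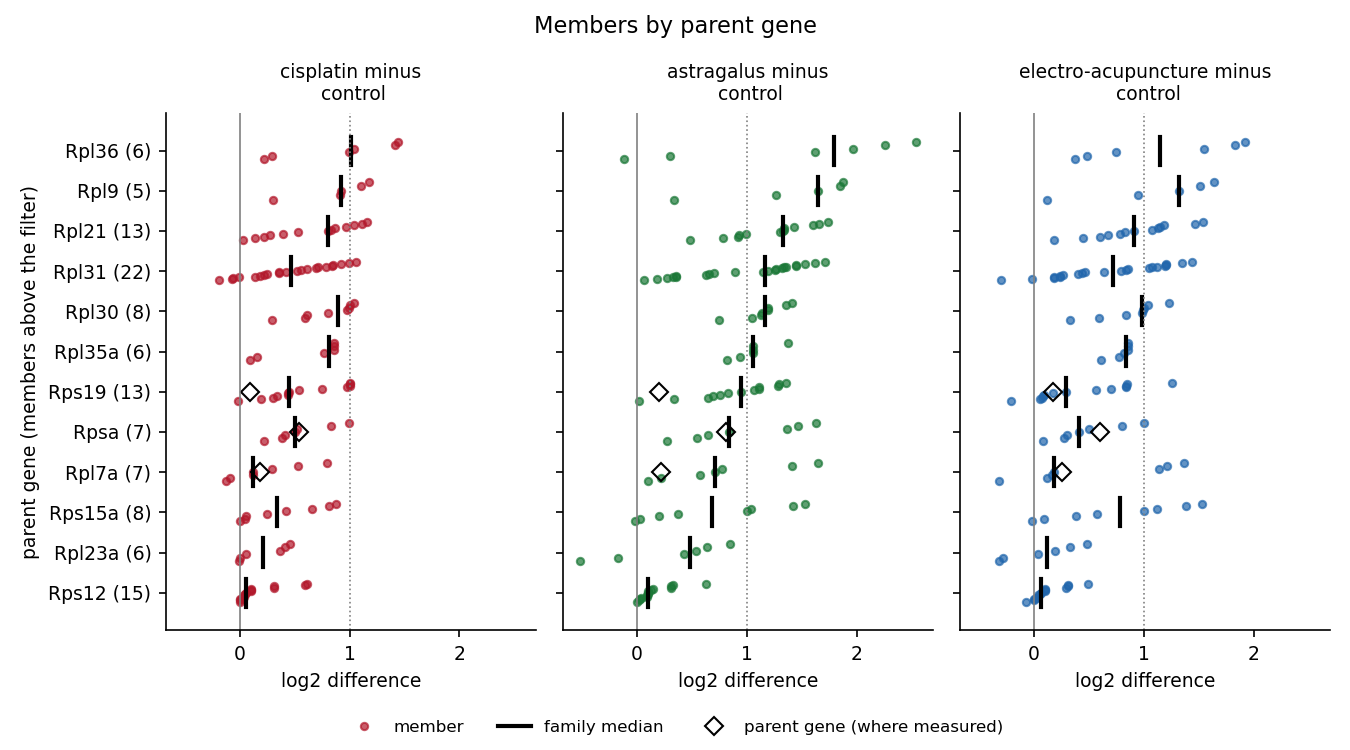
Points are log2 differences from the control array (x axis, 1 panel a comparison) of single members in the 12 families with at least 5 members above the filter (y axis), black bars the family medians and open diamonds the parent gene where it has a cluster of its own; the dotted line marks 2-fold. The Rps12 copies all sit left of the dotted line, and the copies of Rpl31 and Rpl36 spread from near 0 to past the dotted line.

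Copies of 1 gene did not move as a block. In astragalus against control the standard deviation of members around their family mean was 0.495, and that of the 12 family means 0.392. For cisplatin these values were 0.341 and 0.252, and for electro-acupuncture 0.442 and 0.346. Within Rpl36, Rpl36-ps7 read 5.36, 5.58, 5.24 and 5.84 on the control, cisplatin, astragalus and electro-acupuncture arrays, with astragalus lowest, beside the 5.82-fold difference of Rpl36-ps2 between astragalus and control. Within Rpl31, Rpl31-ps20 read 14.45, 15.51, 15.60 and 15.57, and Rpl31-ps24 read 7.42, 7.23, 7.48 and 7.12. Rpl9-ps7 read 14.54, 15.72, 16.42 and 16.18, and Rpl9-ps3 read 5.93, 6.23, 6.27 and 6.05.

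The difference from control varied with level across all members. In 3 bins of 65, 64 and 65 members by mean level (5.24 to 10.86, 10.86 to 15.94 and 15.94 to 19.93), the astragalus medians were 0.36, 1.285 and 1.06. Other pseudogenes in the same bins had 0.16, 0.90 and 0.86, and all other genes 0.03, 0.53 and 0.405. For cisplatin the members had 0.22, 0.635 and 0.56 against 0.09, 0.34 and 0.37 in other pseudogenes and 0.00, 0.09 and 0.155 in all other genes. For electro-acupuncture they had 0.27, 0.835 and 0.86 against 0.14, 0.555 and 0.51, and 0.03, 0.19 and 0.21. In each bin and each of these comparisons the members' median was above that of other pseudogenes of the same bin, which was above that of all other genes. The bins are wide, so levels are not matched within them. The 2-fold share in the brightest bin was 18.5% of members and 18.8% of other pseudogenes in cisplatin, 53.8% and 46.1% in astragalus, and 41.5% and 32.7% in electro-acupuncture. In the dimmest bin the shares were 1.54% and 2.8% in cisplatin, 15.4% and 10.9% in astragalus, and 6.15% and 6.27% in electro-acupuncture.

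**Figure D3:**
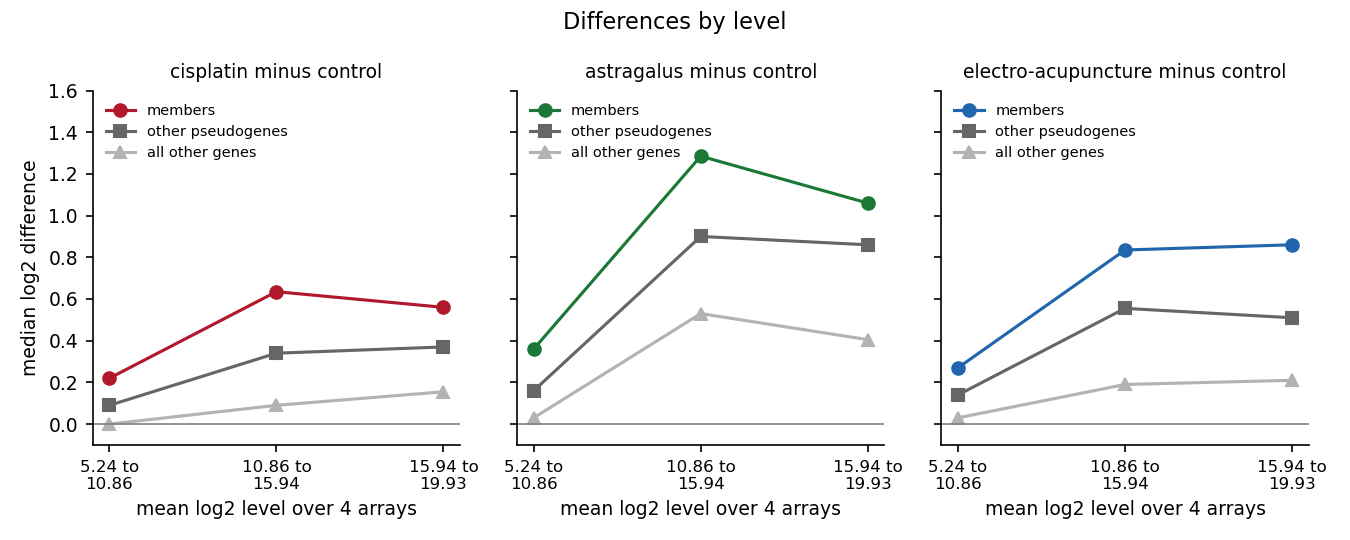
Median log2 difference from control (y axis) of members, other pseudogenes and all other genes in 3 bins of the members' mean log2 level (x axis), 1 panel a comparison. In each panel the 3 lines keep the order members, other pseudogenes, all other genes, and the dimmest bin lies below the others.

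A set of members hardly differed between the arrays. Rpl3-ps1 and Rps23-ps (now Rps23-ps1) read 19.93, the ceiling of the values, on all 4 arrays, so no difference could be measured. Rpl31-ps8 read 19.75 in control and 19.93 on the other 3. Below the ceiling, Rps12-ps9 read 19.91, Rps24-ps3 19.21 and Rpl3-ps2 19.16 on every array. Equal values on all 4 arrays were thus found in 5 of 194 members (2.58%) and in 0.512% of the other genes. All 5 have a mean of at least 16, and at that level the shares were 7.94% of 63 members and 21.9% of 260 other genes.

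The 15 Rps12 copies had medians of 0.06 (cisplatin), 0.10 (astragalus) and 0.06 (electro-acupuncture) against control, and none was 2-fold different. Rps12-ps1 differed most between cisplatin and control, at 15.01, 15.62, 15.64 and 15.50 on the control, cisplatin, astragalus and electro-acupuncture arrays. Rps12-ps5 read 16.61 in control and 16.63 on each of the other 3, and Rps12-ps10 read 19.58 and then 19.62 on each. Rps12-ps13 had 18.95 and then 19.26 on each. The same value on the cisplatin, astragalus and electro-acupuncture arrays was found in 13 members (6.70%) against 0.647% of other genes, and at a mean of at least 16 in 20.6% of members against 26.2% of other genes. The sign of the Rps12 median depended on scaling: it was -0.01 for cisplatin after quantile normalization and -0.01 for astragalus with the loess trend removed.

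Some copies could not be told apart. Rps12-ps6, Rps12-ps17 and Rps12-ps18 had equal values on each array (19.16 in control and 19.26 on the others), as had Rpl35a-ps3, Rpl35a-ps4 and Rpl35a-ps6 (17.38, 18.24, 18.44 and 18.24) and Rps19-ps1 and Rps19-ps2 (12.94, 13.94, 14.05 and 13.78). These 3 sets hold copies of 1 gene each, and their members give no separate information. With the pair at the ceiling, which are copies of different genes, 10 members fell into 4 sets of equal values. Rps19-ps1 and Rps19-ps2 both lie within the T cell receptor alpha locus, Tcra.

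The working parent genes could be compared for part of the list. Of the 51 parents, 16 had a cluster of their own on the parent's chromosome, 30 were listed only in clusters with several genes, 2 had a cluster on another chromosome only, and 3 were not listed. This gave 50 members above the filter with a measured parent, over 14 parents. In astragalus against control the member's difference exceeded the parent's in 36 of the 50 pairs, by a median of 0.52, with medians of 0.885 for the members and 0.53 for the parents. For cisplatin the pairs divided 27 to 23, with a median gap of 0.105, and for electro-acupuncture 26 to 23 with 1 equal, at 0.115. The last gap changed sign with the setting, to -0.02 after quantile normalization. The Rps19 family weighs on these counts. Of its 13 copies, 12 exceeded the parent for cisplatin, 12 for astragalus and 7 for electro-acupuncture. With Rps19 left aside, the member's difference was more often the smaller one for cisplatin, so that majority rests on 1 family. For astragalus it was still more often the larger, and for electro-acupuncture the remaining pairs were nearly even.

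**Figure D4:**
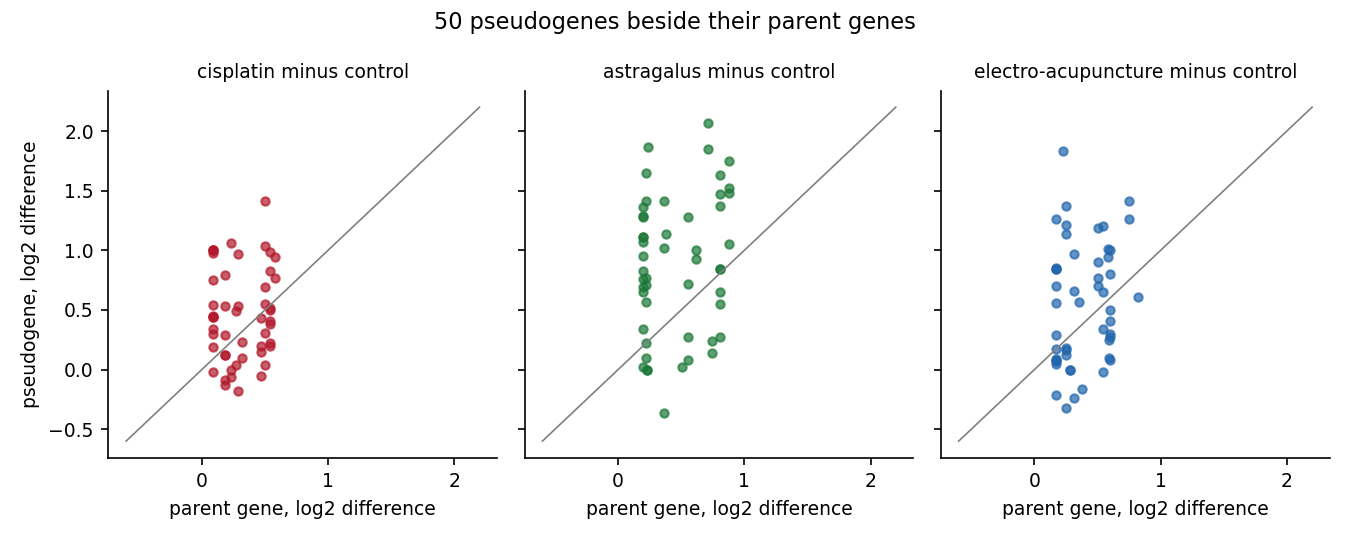
Log2 difference from the control array of 50 pseudogenes (y axis) against that of the parent gene (x axis), 1 panel a comparison, with the line of equal differences; copies of 1 parent share an x value. In the astragalus panel 36 of 50 points lie above the line, against 27 for cisplatin and 26 for electro-acupuncture.

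Single parents show the range. Rps19 itself read 7.54, 7.63, 7.74 and 7.71 on the control, cisplatin, astragalus and electro-acupuncture arrays, and 12 of its 13 copies had a larger difference between astragalus and control than its 0.20. Rpl27 read 9.90, 10.40, 10.61 and 10.65, a difference of 0.71 in astragalus, beside 1.85 and 2.07 in its 2 copies. Rpl39 read 12.32, 12.55, 12.56 and 12.55, and its copy Rpl39-ps (named after its values were seen) 16.10, 17.16, 17.97 and 17.93. Rpsa read 11.39, 11.93, 12.20 and 11.99, and the median of its 7 copies, 0.84, lay beside its own 0.81. Rpl10a went the other way: the gene differed by 0.74 and its 2 copies by 0.14 and 0.24. Parent and copy are measured by different probes, and their response to a given amount of RNA can differ.

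As a class, the 32 cytosolic ribosomal protein genes measured on their own chromosome had medians of 0.32, 0.53 and 0.445 above control in cisplatin, astragalus and electro-acupuncture, with 0, 4 and 1 genes 2-fold higher. The 15 translation factors and other genes with TOP messages had 0.43, 0.77 and 0.44. Within that list Eef2, the elongation factor that moves the ribosome along the message, read 14.92, 15.84, 16.63 and 16.06 on the 4 arrays, and Eef1g, a subunit of the factor that recharges elongation factor 1A, 10.51, 11.19, 11.91 and 11.66. The 22 ribosome biogenesis genes had 0.365, 0.47 and 0.385, among them Ncl (nucleolin, a nucleolar RNA-binding protein) at 13.36, 14.38, 14.85 and 14.84. Other pseudogenes, 2665 above the filter, had 0.13, 0.27 and 0.19, with 5.55%, 18.2% and 11.0% at least 2-fold higher. A set of 15 pseudogenes that RefSeq now names as ribosomal protein copies, but that the rule did not take, had 0.48, 1.03 and 0.55. All these medians stayed above 0 under the 3 other scalings.

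**Figure D5:**
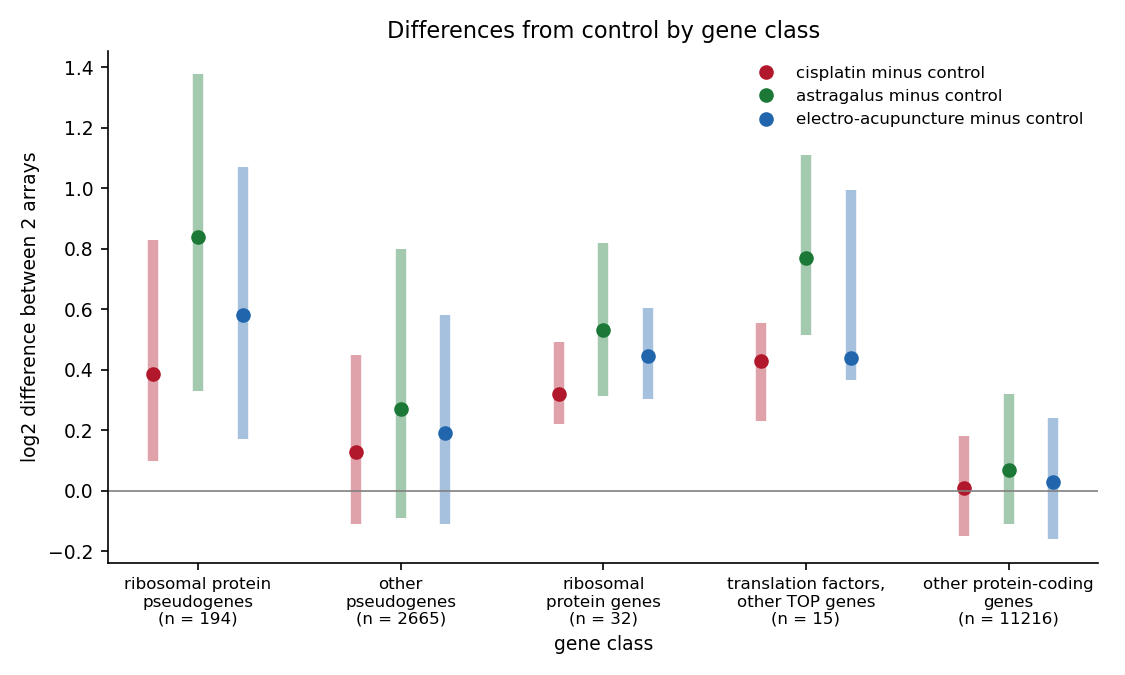
Median (points) and interquartile range (bars) of the log2 difference from the control array (y axis) in 5 gene classes (x axis), in 3 colours for the 3 comparisons. The members' medians of 0.385, 0.84 and 0.58 are above those of other pseudogenes (0.13, 0.27 and 0.19) and of other protein-coding genes (0.01, 0.07 and 0.03). Ribosomal protein genes (0.32, 0.53 and 0.445) lie closer, and translation factors and other TOP genes (0.43, 0.77 and 0.44) exceed the members for cisplatin.

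Place in the genome was described through RefSeq spans. Inside the span of another gene lay 60 members, with medians of 0.57 (cisplatin), 1.06 (astragalus) and 0.84 (electro-acupuncture) above control. The 134 outside had 0.365, 0.81 and 0.50. The inside group also had the higher median of mean levels, 15.13 against 13.95, and the share of the gap that goes with level was not tested. Members with spans shorter than the median of 513.5 bases and those at or above it had close medians in astragalus, 0.93 and 0.84.

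Genes outside the list with the profile most like the members' median were found by the distance between their values, each centred on its own mean over the 4 arrays. The 10 nearest were Gm11687, Gm17121, Gm17222, Vcp, Gm8503, Usp24, Gm8318, Rps4x, Gatm and Mrpl11, at distances of 0.0479 to 0.060 log2 units over 4 arrays. Rps4x, a small-subunit gene, read 13.88, 14.29, 14.72 and 14.38 on the control, cisplatin, astragalus and electro-acupuncture arrays, and Gm11687, a pseudogene, 13.09, 13.53, 13.94 and 13.64. With 4 arrays many genes lie near any such profile, so the list describes these arrays only.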

How the data were processed

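The deposited values are log2 signals, 1 per transcript cluster and array, for 65956 clusters on 4 arrays. The submitters' processing notes name Affymetrix Expression Console as the tool. Its version, its summary method and the genome build were not given in the sources used here. Values were used as deposited and reach a ceiling of 19.93. Array number, 1 a group, limits the precision.

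Genes were named from 31258 clusters with 1 symbol, updated through a RefSeq table of GRCm38.p6, and 1492 clusters with several symbols were left out. Where a gene had several clusters, the one with the highest mean was taken, and a parent's cluster had to lie on its own RefSeq chromosome. After the filter at a mean of 5.235, 17196 genes were compared by plain differences of log2 values in 6 pairs of arrays. Called means at least 2-fold. The calculation was tested on simulated data.

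The members and the gene lists were chosen with earlier results of these data known. Named members were, for each comparison, the 8 with the largest difference, then the 10 with the highest mean and the 10 with the smallest range, the highest and lowest of each large family in cisplatin minus control, sets of equal values and parent genes. Exceptions are marked. Alternatives tried were quantile normalization, centring on the array median, removal of a loess trend, other filters and thresholds, and the choice of cluster. Whether a member lies on its host gene's strand was not analysed here. Computations used Python 3.11.15 with pandas 2.3.3, numpy 2.4.6 and statsmodels 0.14.6.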

Additional observations from a re-analysis of the deposited data

How the results depend on the processing

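No paired analysis was possible because each group is 1 array. No member was 2-fold lower than the array it was compared with, as deposited or under quantile normalization, centring or loess. Quantile normalization lowered the members' median to 0.625 (astragalus minus control) and 0.28 (astragalus minus cisplatin), and the counts of 2-fold members to 12 (cisplatin minus control), 37 (electro-acupuncture minus control), 12 (astragalus minus cisplatin) and 0 (astragalus minus electro-acupuncture). Centring on the array median gave 0.96 (astragalus minus control, with the all-gene median at 0.17), 0.535 (astragalus minus cisplatin) and 0.37 (astragalus minus electro-acupuncture). The count in the last was 5 (2.58%, against 1.99% of all genes). With the loess trend removed the medians were 0.692 and 0.267 for astragalus minus control and minus cisplatin, with counts of 9 for astragalus minus cisplatin and 0 for astragalus minus electro-acupuncture. The filter at the 75th percentile raised the medians to 1.01 (astragalus minus control) and 0.725 (electro-acupuncture minus control). A 1.5-fold threshold, in either direction, gave a count of 71 (36.6%, against 11.4% of all genes) for cisplatin minus control. For electro-acupuncture minus control the count was 97 (50%, against 18%), and for astragalus minus cisplatin 66 (34%, against 14.4%). Closer to the all-gene share were 31 (16%, against 11.3%) for electro-acupuncture minus cisplatin and 24 (12.4%, against 9.85%) for astragalus minus electro-acupuncture. The gap between copies and parents in electro-acupuncture minus control turned to -0.02 after quantile normalization and to -0.025 with a parent cluster on any chromosome, an alternative chosen after seeing the data. The causes were not tested. The remaining 81 alternatives for the medians and counts moved a median by no more than 0.1 or a count by no more than 1.5 times. Among these, the astragalus minus control count of 87 became 58 after quantile normalization, 70 with loess and 121 at 1.5-fold (62.4%, against 21.1% of all genes).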

Other observations

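Values were often equal between the cisplatin and electro-acupuncture arrays. To 2 decimals, 38 of 194 members (19.6%) had the same value on both, against 2.78% of the other genes compared, and the other pairs of arrays had 3.09% to 8.25% of members. Among genes with a mean of at least 16, the shares were 46.0% of 63 members and 39.6% of 260 other genes. In the other 5 pairs of arrays bright members were equal less often than bright other genes, for example 12.7% against 30.8% for control and cisplatin and 22.2% against 29.2% for cisplatin and astragalus.

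Some clusters carry the symbol of a working ribosomal protein gene but lie on another chromosome than that gene, and they were left out of the comparison with parents. There were 9 such clusters of 8 genes. For Rpl27 the off-chromosome cluster read 15.94, 17.25, 17.91 and 17.40 on the control, cisplatin, astragalus and electro-acupuncture arrays, a difference of 1.97 in astragalus, beside 0.71 at the gene's own cluster. For Rpl35 the differences were 1.26 and 0.26, and for Fau, which encodes a small-subunit protein fused to a ubiquitin-like protein, 1.63 and 0.80. The 2 clusters of Rps26 that lie elsewhere gave 2.41 and 0.46, beside 2.14 at its own. Rpl7a went the other way, at 0.00 elsewhere and 0.22 at its own cluster, and the cluster of Rpl41 elsewhere was at the ceiling on all 4 arrays.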
